A study of Mus musculus with 4 samples.

Results

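The genes described here are the receptors that bind the constant (Fc) part of immunoglobulin G (IgG) and the signaling proteins that such receptors lean on. They were taken by symbol from the deposited expression table: Fcgr1, Fcgr3 and Fcgr4 (activating IgG receptors), Fcgr2b (the inhibitory IgG receptor), Fcgrt (the neonatal IgG transport receptor), Fcer1g, Tyrobp and Hcst (signaling adaptors) and Syk (the kinase that binds phosphorylated ITAMs). All 9 were found among the 17335 genes of the table, and all 9 were among the 15839 genes that reached 0.1 FPKM in at least 1 library. FPKM is the number of sequenced fragments scaled to the length of the transcript and to the total of the library, so FPKM levels may be compared between genes.

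The tissue was gonadal white adipose tissue (gWAT) of female mice kept on a high-fat diet (HFD) for 18 weeks, and its mRNA was sequenced to ask how inflammatory genes differ without adipocyte Dnmt1. The fl/fl group carried loxP-flanked Dnmt1 alleles with an intact gene, and the AD1KO group consisted of their littermates in which adiponectin-Cre deletes floxed Dnmt1, the maintenance DNA methyltransferase. Each group is represented by 1 library, made from a pool of the RNA of 4 mice in equal parts. The adiponectin promoter is active in adipocytes, whereas most of the 9 genes are known as leukocyte genes. Which cells of this tissue expressed them was not tested. Both groups share the floxed alleles, the diet and the sex, and the age at the start of the diet is not given in the sources used here. A pair of pooled libraries cannot show the spread between animals, so no test was possible and no p-value is given; each difference below compares these libraries only. In bulk tissue, fewer cells of a type and less RNA per cell cannot be told apart.

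An activating Fc receptor has little signaling capacity of its own. When IgG-coated particles cluster it at the membrane, it signals through a paired adaptor that carries an immunoreceptor tyrosine-based activation motif (ITAM), whose tyrosines are phosphorylated by Src family kinases and then bound by Syk. Fcgr2b carries an inhibitory motif (ITIM) in its own tail and recruits phosphatases that oppose this signal. Fcgrt does not belong to this circuit: it binds IgG in endosomes and returns it to the circulation. Hcst, also called DAP10, is an adaptor but not an ITAM adaptor, since its tail holds a motif for phosphoinositide 3-kinase. In obese adipose tissue these genes are mostly associated with macrophages.

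The motifs that sort these genes are shown as coding sequence of the GENCODE transcripts on mouse mm9, 5′ to 3′ on the sense strand, with the codons of the motif tyrosines in capitals. The Fcer1g motif lies at chr1:173160020-173160203 on the minus strand and the Tyrobp motif at chr7:31200689-31202401 on the plus strand, each split by an intron. The Hcst motif lies at chr7:31202840-31202851 and the Fcgr2b motif at chr1:172891202-172891219, both on the minus strand and within 1 coding exon.
Fcer1g ITAM, codons 65 to 79 of 86: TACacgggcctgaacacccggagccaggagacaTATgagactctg
Tyrobp ITAM, codons 92 to 106 of 114: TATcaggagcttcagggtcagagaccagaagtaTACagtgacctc
Hcst motif, codons 72 to 75 of 79: TACatcaacatg
Fcgr2b ITIM, codons 317 to 322 of 340: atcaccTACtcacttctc

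The ITAM was searched as 2 tyrosines, each followed 3 residues on by leucine or isoleucine, with 6 to 8 residues between these units. Of 22315 genes, 632 (2.83%) held a match, and among the 9 genes only Fcer1g and Tyrobp did. Fcgr1, Fcgr3 and Fcgr4, with 404, 267 and 249 codons, held none. The shorter motifs are common, with the ITIM pattern in 47.1% and the Hcst pattern in 24.1% of genes, so a match to them alone is a description of letters and not of a working site.

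The libraries were of similar depth. From the steps of the low FPKM values, depth was estimated at about 17738825 reads for fl/fl and 17585952 for AD1KO, and tested genes had a median of about 574 reads over the libraries. Intervals given with the ratios are at 95%, by the exact Clopper-Pearson method on estimated reads, and leave out every error but that of counting. Dnmt1, the deleted gene, was at 6.99 FPKM in fl/fl against 3.33 in AD1KO, and Esr1, the estrogen receptor gene followed in the study, was at 4.82 and 8.44. The tissue label was checked against 10 adipocyte genes, all of which were detected, with a summed level of 17250 FPKM in fl/fl against 26260 in AD1KO. The leukocyte gene Ptprc was at 27.3 and 11.3 FPKM.

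Of the 9 genes, 8 had a log2 ratio of -0.5 or less in AD1KO, the threshold of the study, and are called lower, 0 were higher, and Fcgrt was neither. Over all tested genes 19.1% were lower and 14.3% higher past the same threshold, whereas after upper quartile scaling of the libraries 2590 genes were lower and 2803 higher. The median log2 ratio, taken as AD1KO over fl/fl throughout, was -1.19 for the 9 genes and -0.04 for all tested genes. Counting left 7 of the genes with an interval entirely under -0.5, and 6 genes had a log2 ratio of -1 or less, a size reached by 8.95% of all tested genes. The reads behind these values ran from 96 over both libraries for Hcst to 12788 for Tyrobp.

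**Figure D1:**
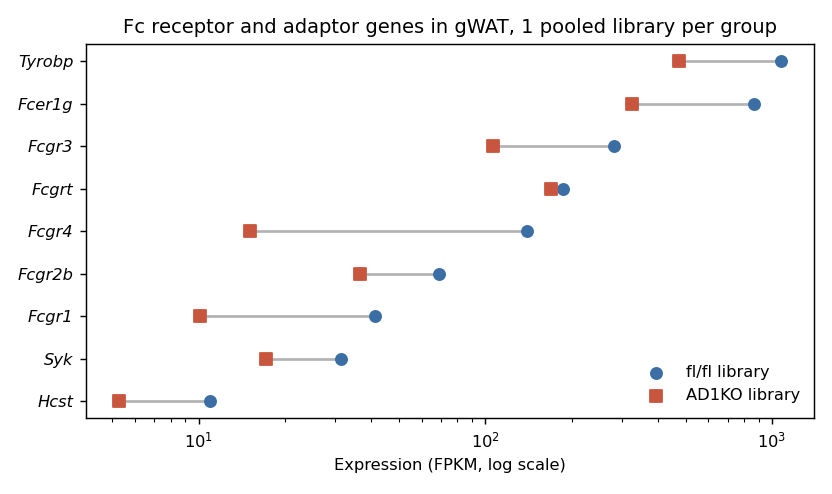
Expression of the 9 genes in FPKM on a log axis, with a circle for the fl/fl library and a square for the AD1KO library, each 1 pool of 4 animals. The square lies left of the circle for each gene, by the widest distance for Fcgr4 (140 to 15.1 FPKM) and by the narrowest for Fcgrt (186 to 169 FPKM).

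The activating receptors Fcgr4 and Fcgr1 had the lowest ratios. Fcgr4 (gene 246256, chromosome 1 of mm9, 172949051 to 172959892, plus strand), a receptor of intermediate affinity used by monocytes, macrophages and neutrophils, was at 140 FPKM in the fl/fl library and 15.1 in the AD1KO library. The AD1KO library thus held 10.8% of the fl/fl level, from about 2804 and 300 reads, a log2 ratio of -3.21 (95% counting interval -3.39 to -3.04). Among the 15839 tested genes, 236 had a lower ratio. In the order of levels Fcgr4 went from place 640 in fl/fl to place 4268 in AD1KO.

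Fcgr1 (gene 14129, chromosome 3, 96086832 to 96098179, minus strand), the high-affinity IgG receptor, was at 41.2 FPKM in fl/fl against 10.1 in AD1KO. That is 24.5% of the fl/fl level, from about 1806 and 439 reads, a log2 ratio of -2.03 (interval -2.18 to -1.88). Fcgr3 (gene 14131, chromosome 1, 172981300 to 172995066, minus strand), the low-affinity activating receptor, was at 281 FPKM in fl/fl against 107 in AD1KO, a log2 ratio of -1.40 (interval -1.47 to -1.33). Fcgr3 was at a higher level than Fcgr1, Fcgr4 and Fcgr2b in both libraries, and the intervals of the 3 activating receptors did not overlap one another.

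Fcgr2b (gene 14130, chromosome 1, 172890689 to 172906678, minus strand), the inhibitory receptor, was at 68.8 FPKM in the fl/fl library and 36.5 in the AD1KO library. It kept 53.0% of the fl/fl level, a log2 ratio of -0.92 (interval -1.04 to -0.79), which is less low than that of any activating receptor. The transcripts of Fcgr2b and Fcgr3 share 166 windows of 50 bases, 10.1% of the windows of Fcgr2b and 10.2% of those of Fcgr3, so the division of reads between these genes is uncertain. No other pair among the 9 genes shares such a window.

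Relative to one another, the receptors were in different proportions in the libraries. The summed FPKM of Fcgr1, Fcgr3 and Fcgr4 was 6.72 times that of Fcgr2b in fl/fl and 3.62 times in AD1KO. Taken singly, Fcgr4 over Fcgr2b was 2.03 in fl/fl against 0.414 in AD1KO, a log2 change of -2.30 (counting interval -2.51 to -2.09, here a normal interval of the log odds ratio of reads). Fcgr1 over Fcgr2b was 0.6 and 0.277, a log2 change of -1.11 (interval -1.30 to -0.92). For Fcgr3 over Fcgr2b the ratios were 4.09 and 2.93 (log2 change -0.48, interval -0.62 to -0.34). So the balance was lower in AD1KO whichever activating receptor was taken, while its size differed by receptor.

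Of the summed level of these 4 IgG receptors, 531.0 FPKM in fl/fl against 168.4 in AD1KO, Fcgr4 made up 26.3% and 8.97%. The share of Fcgr1 was 7.77% and 6.0%. Fcgr3 made up 52.9% in fl/fl and 63.4% in AD1KO, and Fcgr2b 13.0% and 21.7%. Fcgr4 was therefore above Fcgr2b in the fl/fl library and below it in the AD1KO library.

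**Figure D2:**
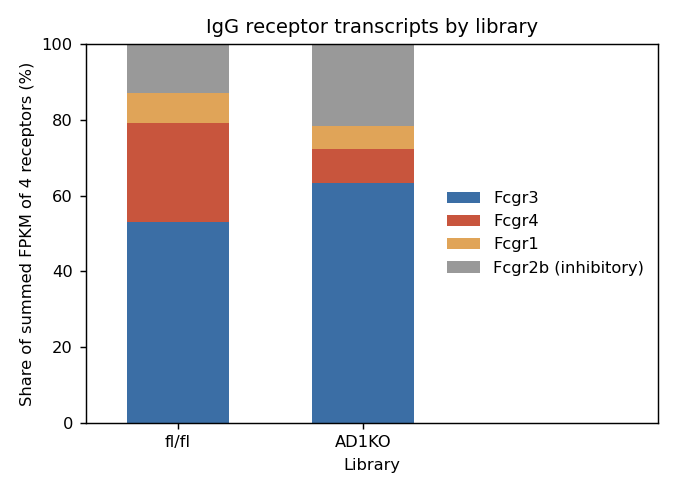
Stacked bars of the share (%) of Fcgr3, Fcgr4, Fcgr1 and Fcgr2b in the summed FPKM of these 4 IgG receptor genes, 1 bar per library. Fcgr4 makes up 26.3% of the fl/fl bar and 8.97% of the AD1KO bar, and the inhibitory Fcgr2b 13.0% and 21.7%.

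Fcgrt (gene 14132, chromosome 7, 52348363 to 52359192, minus strand) stood at 186 FPKM in fl/fl against 169 in AD1KO. The library of AD1KO held 90.6% of the fl/fl level, a log2 ratio of -0.14 (interval -0.20 to -0.09) from about 5350 and 4807 reads. Its protein pairs with beta-2-microglobulin, whose gene B2m was at 7393 and 5948 FPKM (log2 ratio -0.31, interval -0.33 to -0.30). Fcgrt is known from endothelial and epithelial cells as well as from macrophages. Of 8 endothelial marker genes 0 were lower and 0 higher, with a median log2 ratio of 0.28 and 6 intervals above 0. Of 10 adipocyte marker genes 8 were higher, and no epithelial markers were examined. The part of any of these cells in the Fcgrt values was not tested. Fcgrt was thus the one IgG-binding receptor of the 9 genes whose libraries differed by less than the threshold.

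The adaptors Tyrobp and Fcer1g were the most abundant of the 9 genes, and Hcst was the least abundant. Tyrobp (gene 22177, chromosome 7, 31198807 to 31202596, plus strand), also called DAP12, was at 1077 FPKM in the fl/fl library and 474 in the AD1KO library, a log2 ratio of -1.19 (interval -1.24 to -1.13). Fcer1g (gene 14127, chromosome 1, 173159703 to 173164496, minus strand), the common gamma chain used by the activating IgG receptors and the IgE receptor, was at 862 FPKM in fl/fl against 325 in AD1KO, a log2 ratio of -1.41 (interval -1.47 to -1.35). Hcst (gene 23900, chromosome 7, 31202732 to 31204873, minus strand) stood at 11.0 FPKM in fl/fl against 5.29 in AD1KO, resting on 65 and 31 estimated reads. The log2 ratio of -1.05 therefore had the widest interval, from -1.72 to -0.42. These are short transcripts of 586, 683 and 452 bases, for which the FPKM level depends most on the length correction, unlike the ratio between libraries.

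Fcer1g and its receptor Fcgr3 had similar log2 ratios. With a single pooled library per group, this does not show that the genes vary together. Fcer1g over Fcgr3 was 3.07 in fl/fl against 3.05 in AD1KO, a log2 change of -0.01 (interval -0.10 to 0.08). Against the sum of the activating receptors, which includes Fcgr4, Fcer1g was 1.86 times as high in fl/fl and 2.47 times in AD1KO. The adaptor was thus at a higher level per activating receptor transcript in AD1KO.

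Tyrobp over Fcer1g was 1.25 and 1.46, a log2 change of 0.22 (interval 0.14 to 0.30). Trem2, a lipid-sensing macrophage receptor that signals through Tyrobp, was at 297 and 135 FPKM, and Tyrobp over Trem2 was 3.63 and 3.5 (log2 change -0.05, interval -0.14 to 0.04). Tyrobp over Hcst was 98.0 and 89.6, but the low reads of Hcst leave an interval of the log2 change from -0.77 to 0.54. A difference between these neighbors on chromosome 7 was not detectable at this depth.

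Syk (gene 20963, chromosome 13, 52678542 to 52744161, plus strand) was at 31.4 FPKM in the fl/fl library and 17.2 in the AD1KO library. It kept 54.8% of the fl/fl level, a log2 ratio of -0.87 (interval -0.96 to -0.78), and had the highest ratio of the 8 lower genes, with an interval that overlaps that of Fcgr2b. Zap70, the related kinase of T cells and natural killer (NK) cells, was at 4.99 and 1.49 FPKM (log2 ratio -1.74, interval -2.20 to -1.31), so that Syk over Zap70 was 6.29 in fl/fl and 11.6 in AD1KO. Tyrobp over Syk was 34.3 and 27.5, a log2 change of -0.32 (interval -0.42 to -0.21).

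By level, the order in fl/fl was Tyrobp, Fcer1g, Fcgr3, Fcgrt, Fcgr4, Fcgr2b, Fcgr1, Syk and Hcst. In AD1KO it was Tyrobp, Fcer1g, Fcgrt, Fcgr3, Fcgr2b, Syk, Fcgr4, Fcgr1 and Hcst. Fcgr4 was above Fcgr2b and Syk in fl/fl and below both in AD1KO, Syk was below Fcgr1 in fl/fl and above it in AD1KO, and Fcgrt and Fcgr3 also changed places. Exact Poisson intervals of neighbors in these orders overlapped only for Syk (16.4 to 18.1 FPKM) and Fcgr4 (13.4 to 16.9 FPKM) in AD1KO; the spread between animals is not known for any of them.

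Macrophage genes were lower in the same library, and their part in the values above was not tested. Of 16 macrophage markers, 13 were lower, 0 higher and 3 neither, with a median log2 ratio of -1.04 and a summed level of 7300 FPKM in fl/fl against 3210 in AD1KO. The lowest were the complement genes C1qb (-1.45) and C1qa (-1.42), and the highest were the transcription factor Maf (-0.19) and the scavenger receptor Cd163 (0.30), a marker of resident macrophages. Fcgr4 and Fcgr1 lay below the lowest of the 16 markers, while Fcer1g, Fcgr3, Tyrobp, Hcst, Fcgr2b and Syk lay within their range.

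Set against the macrophage gene Adgre1, which encodes F4/80 and was at 130 FPKM in fl/fl against 54.3 in AD1KO, Fcgr4 was 1.08 times as high in fl/fl and 0.278 times in AD1KO. This is a log2 change of -1.95 (interval -2.14 to -1.77). Fcgr1 over Adgre1 was 0.318 and 0.186 (log2 change -0.77, interval -0.93 to -0.61). Both receptors were thus lower per Adgre1 transcript as well.

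Fcgr3 and Fcer1g changed little per Adgre1 transcript, with log2 changes of -0.14 (interval -0.23 to -0.05) and -0.15 (interval -0.23 to -0.06). Tyrobp did so too, at 0.07 (interval -0.01 to 0.16). Fcgr2b over Adgre1 was higher in AD1KO, at 0.529 and 0.672 (log2 change 0.34, interval 0.21 to 0.48), as was Syk, at 0.242 and 0.317 (0.39, interval 0.28 to 0.50). For Hcst the log2 change was 0.20, with an interval from -0.47 to 0.84 that its low reads leave wide. Fcgrt over Adgre1 was 1.43 and 3.11, the highest of the log2 changes at 1.12 (interval 1.03 to 1.2). These changes hold for Adgre1 alone, whose log2 ratio of -1.26 was below the marker median of -1.04. Taken from that median, the differences were -0.35 for Fcgr3, -0.36 for Fcer1g, 0.13 for Fcgr2b and 0.18 for Syk. The markers Csf1r (-0.81) and Mrc1 (-0.80) had higher ratios than Fcgr2b and Syk, so the direction for Fcgr2b and Syk depends on the marker taken.

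**Figure D3:**
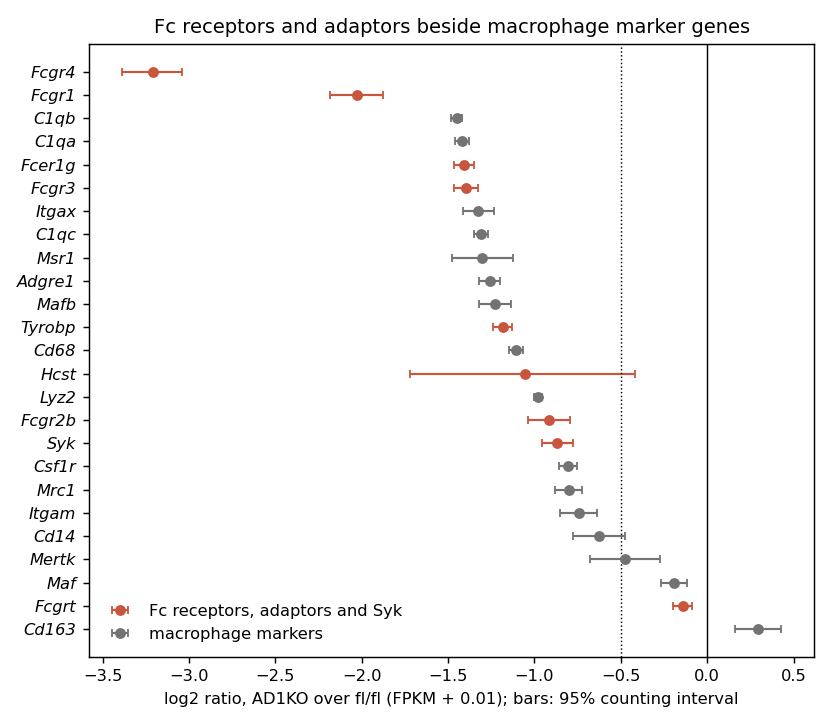
Log2 ratio of AD1KO over fl/fl (FPKM plus 0.01) for the 9 genes and 16 macrophage markers, with bars for the 95% counting interval, a solid line at 0 and a dotted line at -0.5. Fcgr4 (-3.21) and Fcgr1 (-2.03) lie left of the lowest marker, C1qb (-1.45), and Fcgrt (-0.14) lies between Maf (-0.19) and Cd163 (0.30).

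Other cells that use these genes were followed through their own markers, whose part in the values was likewise not tested. All 9 NK cell markers were lower (median -2.04, summed level 55.7 FPKM in the fl/fl library and 13.3 in the AD1KO library), as were all 8 T cell markers (median -1.64, 68.1 and 20.6 FPKM). All 9 mast cell markers were lower (median -1.36, 383 and 141 FPKM). Of 9 neutrophil markers, 4 were lower, 3 higher and 2 neither, with a summed level of 46.8 and 67.1 FPKM, but the counting interval held 0 for 5 of them. That sum rests mostly on S100a8, at 32.7 and 57.3 FPKM, whereas S100a9 was at 5.4 and 3.13 FPKM. Ngp, counted as higher, had only about 1 and 5 reads. Mmp9, also higher, had about 56 and 131 reads (log2 ratio 1.23, interval 0.78 to 1.72). Csf3r, counted as lower, had about 347 and 161 reads (-1.09, interval -1.37 to -0.82). Of 8 B cell markers, 5 were lower (median -0.68), and of 8 dendritic cell markers 5 were lower and 2 higher (median -0.61). No marker in these lists was listed at 0 in either library, and the neutrophil gene Ly6g was not found by symbol. The leukocyte lists thus did not have 1 common ratio, and NK and T cell genes were lower than macrophage genes by their medians.

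Genes tied to immunoglobulin production were examined next. Among them, 3 were present under the symbols searched, none of them a heavy or light chain: Mzb1 and Derl3, which serve immunoglobulin folding in plasma cells and B cells, and Jchain, the joining chain of polymeric immunoglobulins. Jchain was at 102 FPKM in fl/fl against 37.6 in AD1KO (log2 ratio -1.44, interval -1.53 to -1.35). Mzb1 was at 24.2 and 8.58 FPKM (-1.50), and Derl3 at 4.55 and 3.37 FPKM (-0.43, interval -0.87 to -0.02). So 2 of the 3 were lower past the threshold.

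Of 12 tested genes for other Fc receptors and Fc-binding proteins, 7 were lower, 0 higher and 5 neither, with a median of -0.70. Fcer1a, the IgE-binding chain that mast cells join to Fcer1g, was at 7.95 FPKM in fl/fl against 3.08 in AD1KO (log2 ratio -1.37, interval -1.88 to -0.89). Trim21, which binds antibody in the cytosol, was at 5.94 and 3.37 FPKM (-0.82). At the other end, Pigr, the carrier of polymeric immunoglobulin across epithelia, was at 0.82 and 1.01 FPKM (0.30, interval -0.24 to 0.85). Fcrls, an Fc receptor-like gene, was at 12.5 and 17.5 FPKM (0.48, interval 0.30 to 0.67).

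Among receptors that pair with Tyrobp, Fcer1g or Hcst, 20 of 22 tested were lower, 1 higher and 1 neither, with a median of -1.28, although the counting interval held 0 for 7 of them. The lowest at 1 FPKM or more were receptors of NK cells. Ncr1, which signals through Fcer1g and T cell receptor zeta chains, was at 1.64 FPKM in the fl/fl library and 0.21 in the AD1KO library (log2 ratio -2.91, interval -4.65 to -1.61). Klrk1, or NKG2D, the receptor served by Hcst, was at 3.76 and 0.89 FPKM (-2.07, interval -2.57 to -1.63). The highest were the paired receptors Pilrb1 (2.81 and 1.9 FPKM, log2 ratio -0.56) and Pilrb2 (4.34 and 3.33 FPKM, -0.38), whose intervals held 0. Genes outside these limits rested on few reads: Klrc2 was at 0.48 FPKM (about 5 reads) and listed at 0, respectively, and Oscar was at 0.03 and 0.13 FPKM.

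The ITAM chains of lymphocyte receptors were lower in 6 of 6 cases, with a median of -1.52, but by different amounts. Cd3d, Cd3e and Cd3g were already counted among the T cell markers, and Cd79a and Cd79b among the B cell markers. Cd3g and Cd3d of the T cell receptor were at 25.8 and 10.5 FPKM in fl/fl and at 7.12 and 3.01 in AD1KO, log2 ratios of -1.85 and -1.80. Cd79a and Cd79b of the B cell receptor were at 47.5 and 25.6 FPKM in fl/fl and at 29.3 and 16.02 in AD1KO, log2 ratios of -0.70 (interval -0.84 to -0.55) for Cd79a and -0.68 (interval -0.88 to -0.47) for Cd79b. By these values Cd3g and Cd3d had lower ratios than Fcer1g and Tyrobp, and the B cell chains had higher ones, with intervals that did not overlap those of either adaptor in the case of the B cell chains.

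Among Src, Syk and Tec family kinases, 9 of 14 were lower, 1 higher and 4 neither, with a median of -0.97. After Zap70 the lowest was Fgr, a myeloid Src kinase, at 5.59 FPKM in fl/fl against 1.76 in AD1KO (log2 ratio -1.66, interval -2.01 to -1.34). Src and Yes1, which most cell types express, were at 4.99 and 4.86 FPKM (-0.04) and at 2.37 and 2.69 FPKM (0.18), with intervals that held 0. Blk (-0.22) and Tec (-0.21) were neither as well, and Fyn was lower (-0.92). Bmx, the gene counted as higher, had only about 9 and 19 reads.

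Downstream of Syk, 19 of 27 genes were lower, 0 higher and 8 neither, with a median of -0.91. Lat and Lat2, the membrane scaffolds of T cells and of B cells and myeloid cells, were at 12.6 and 67.2 FPKM in fl/fl and at 3.38 and 24.4 in AD1KO. Their ratios on the log2 scale were -1.89 (interval -2.30 to -1.51) for Lat and -1.46 (interval -1.59 to -1.33) for Lat2. Plcg1, a phospholipase of most cell types, was at 9.2 and 10.7 FPKM (0.22, interval 0.09 to 0.36), whereas Plcg2, the form used by hematopoietic cells, was at 9.24 and 4.62 FPKM. Of the phosphoinositide 3-kinase genes, Pik3cb, which is widely expressed, was at 8.33 and 10.0 FPKM (0.27), and the leukocyte forms Pik3cd and Pik3cg had log2 ratios of -1.27 and -0.41. Plcg2 and Pik3cd were thus lower, while Plcg1, Pik3cb and Pik3cg did not pass the threshold.

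On the inhibitory side, to which Fcgr2b belongs, 19 of 26 genes were lower, 1 higher and 6 neither, with a median of -1.06. Cd72, an ITIM receptor of B cells and macrophages, was at 58.3 FPKM in fl/fl against 13.6 in AD1KO (log2 ratio -2.10, interval -2.28 to -1.93), and the lectin Siglece was at 3.23 and 0.82 FPKM (-1.96). Among the phosphatase genes, Inpp5d (SHIP1), the enzyme recruited by Fcgr2b, had a log2 ratio of -1.11 (interval -1.25 to -0.97), and Ptpn6 (SHP-1) one of -1.56 (interval -1.68 to -1.44). Their relatives Inppl1 (SHIP2) and Ptpn11 (SHP-2) were at -0.18 and 0.06. Inpp5d and Ptpn6 were lower than the receptor Fcgr2b itself (-0.92), though for Inpp5d the intervals overlap. Ceacam1 was at 3.61 and 4.13 FPKM (0.19) and Cd33 at 1.14 and 1.72 FPKM (0.59, interval 0.21 to 0.97).

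The genes of the uptake list, many of them known as leukocyte genes, were nearly all lower, against 19.1% of all tested genes. The list therefore does not stand for uptake genes of every cell type. Of 17 genes of the phagocyte NADPH oxidase, the actin machinery and the integrins, 16 were lower, 0 higher and 1 neither, with a median of -1.17 and all 17 intervals below 0. Cybb, the catalytic subunit of the oxidase, was at 40.6 FPKM in the fl/fl library and 15.6 in the AD1KO library (log2 ratio -1.38, interval -1.47 to -1.29), and Fermt3, an integrin activator, at 44.1 and 17.4 FPKM (-1.34). The highest were Itgam, the alpha chain of complement receptor 3 (23.1 and 13.8 FPKM, -0.74), and Arpc1b of the Arp2/3 complex (339 and 260 FPKM, -0.38).

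**Figure D4:**
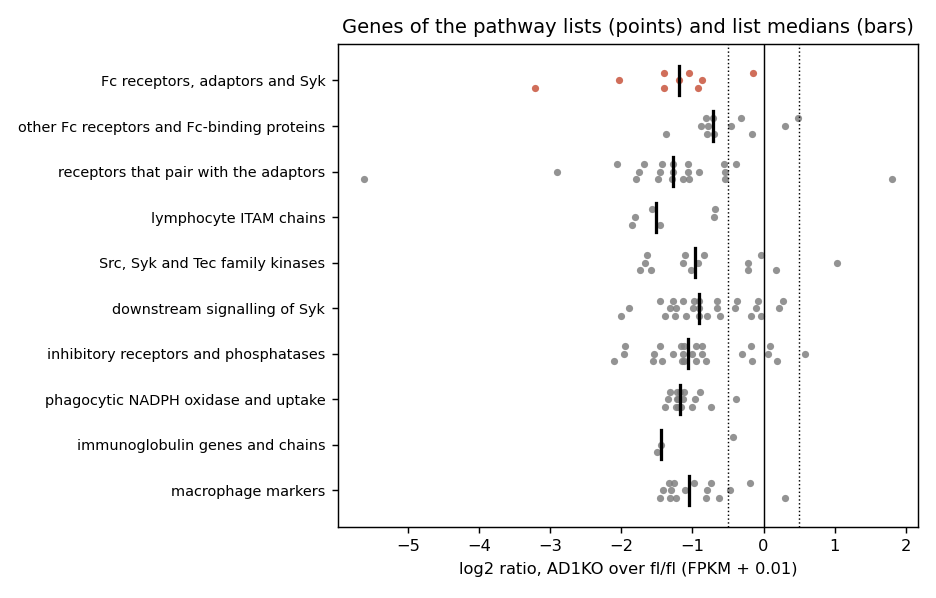
Log2 ratio of AD1KO over fl/fl (FPKM plus 0.01) of each tested gene (points) and the median of each list (black bars), with dotted lines at 0.5 on either side of 0. The median is -1.19 for the 9 genes, -1.17 for the NADPH oxidase and uptake list, -1.04 for the macrophage markers and -0.70 for other Fc receptors.

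Position was compared with the ratios, since 3 of the 9 genes lie close together on chromosome 1. Fcgr4 lies between Fcgr2b, 42372 bases away, and Fcgr3, 21407 bases away, and all 3 were lower. Of the next genes outward in the table, 1 was lower. Fcrla, a B cell Fc receptor-like gene, was at 5.12 FPKM in fl/fl against 3.11 in AD1KO (log2 ratio -0.72), and Cfap126 on the other side was at 6.87 and 8.9 FPKM (0.37). Fcer1g lies apart from this cluster, and its neighbor Apoa2 was at 27.6 and 62.0 FPKM (1.17).

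Tyrobp and Hcst lie on opposite strands with 135 bases between their 3′ ends. Whether reads were counted by strand is not given in the sources used here, so reads of transcripts that run past their ends cannot be assigned, which would weigh more on Hcst, the far less abundant of them. Beyond Hcst, Nfkbid, which encodes a nuclear inhibitor of NF-κB, was at 5.36 and 2.46 FPKM (-1.12), and beyond Tyrobp, Lrfn3 was at 0.74 and 1.68 FPKM (1.17). Rcn3, next to Fcgrt, was at 69.9 and 77.0 FPKM (0.14). Syk lies between Diras2, at 1.17 and 1.76 FPKM (0.58), and Auh, at 43.6 and 52.0 FPKM (0.25). Fcgr1 lies between Hist2h2bb and BC107364, both listed at 0 in fl/fl and at about 1 read in AD1KO.

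Promoter sequence was read for the receptors with the lowest ratios. RefSeq windows on GRCm38.p6, from 250 bases before to 50 after the start of the gene, were matched for 8 of the 9 genes, and Tyrobp was not matched. Both stretches are given 5′ to 3′ on the strand of the gene, with the matched letters in capitals; the first spans chr3:96294005-96294089 (minus strand) and the second chr1:171018846-171018917 (plus strand).
Fcgr1: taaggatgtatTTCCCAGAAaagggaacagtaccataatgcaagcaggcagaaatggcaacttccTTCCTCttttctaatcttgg
Fcgr4: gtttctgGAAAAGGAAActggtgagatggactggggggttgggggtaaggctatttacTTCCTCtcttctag

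The capitals TTCCTC are the reverse complement of GAGGAA, a core bound by PU.1, the factor of myeloid cells. On either strand GAGGAA was in 28.3% of 32851 promoter windows, and among the 9 genes it was found for Fcgr1, Fcgr3, Fcgr4 and 1 of the Syk windows. TTCNNNGAA, the form of the sites of STAT factors, was in 8.3% of windows and here only in that of Fcgr1. A pair of GAAA words with 2 bases between them, the form of the sites of interferon regulatory factors, was in 3.44% of windows and here only in that of Fcgr4. These matches describe letters in a window of fixed length, and binding was not measured.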

How the data were processed

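RNA-seq of gWAT was analysed from 1 pooled library per group, fl/fl and AD1KO. RRBS data from 2 further samples were not analysed here. The authors deposited 1 table of both libraries with expression as FPKM, a unit recognized from its values, with 0 written as 0.01. Clean reads had been aligned to mouse mm9, and the labels name mm9 and mm10; the aligner, the quantifier and strandedness are not given in the sources used here. The 3 columns with the authors' log2 fold change, FDR and P-value of a Poisson comparison were not used.

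Deposited values of 0.01 were read as 0. Ratios compare AD1KO with fl/fl on the log2 scale after adding 0.01 FPKM, which understates the change of low genes. Genes reaching 0.1 FPKM in either library were examined for a log2 ratio of 0.5 or more in size, with no statistical test. FPKM times transcript length falls on whole multiples of 1 read, which gave the depth. A length correction of 120 bases, fitted to the low values, put 78.0% of 799 low values in fl/fl and 75.5% of 804 in AD1KO within 0.1 read of a whole number (48.1% and 47.7% without it), so it was used although planned as the alternative. Reads were then computed per gene with exact Clopper-Pearson intervals of the ratio at 95%. A gene listed at 0 allows up to 3 reads. The table holds no molecular identifiers, so intervals cover counting error only.

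Genes named are the 9 members, Dnmt1, Esr1, the nearest gene in the table on each side (not every one is reported here), and the 2 lowest and 2 highest log2 ratios with at least 1 FPKM in each pathway list and in the macrophage list. Further genes were picked with their values known to accompany a result (Adgre1, Csf1r, Mrc1, S100a8, S100a9, Ngp, Trem2, B2m, Inpp5d, Ptpn6, Inppl1, Ptpn11, Plcg2, Pik3cd, Pik3cg, Ptprc, Klrc2, Oscar, Bmx). Mmp9, Csf3r, Fyn, Blk and Tec were picked in the same way. The members, lists and promoter motifs were chosen with earlier results of these data known. Some genes belong to several lists, such as Itgam and Rac2 of the uptake list, so the lists are not independent of one another. Alternatives were other pseudocounts, filters, scalings and a threshold of 1. Positions and coding sequences came from GENCODE on mm9, where Syk is named Sykb. The depth estimate, the call at the log2 threshold and the Clopper-Pearson interval were first tested on simulated data. The log odds ratio and Poisson intervals, the scalings and the sequence searches were not. Software was SciPy 1.17.1 and NumPy 2.4.6 under Python 3.11.15, with pandas 2.3.3, Matplotlib 3.10.9 and Biopython 1.88.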

Additional observations from a re-analysis of the deposited data

How the results depend on the processing

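The number of members lower in AD1KO was 8 under each other pseudocount, scaling and filter, and 6 at a log2 threshold of 1, and the counts of lower genes in the pathway lists stayed within 1.5 times. Of 45 log2 ratios of single members under another pseudocount or scaling, 41 stayed within the counting interval and 0 changed sign; the 4 outside it all came from upper quartile scaling (Fcgr3 -1.31, Fcer1g -1.32, Fcgrt -0.05, Tyrobp -1.10), which moves the median over tested genes from -0.04 to 0.05 on the log2 scale and turns the balance of calls to 2590 lower and 2803 higher. Taken as the difference from the median log2 ratio of the macrophage markers, Fcgr2b (0.13), Syk (0.18) and Fcgrt (0.90) changed sign, by construction. Over all genes, 1661 were lower and 965 higher with a pseudocount of 1, 1417 and 910 at a threshold of 1, and 1281 higher with a filter of 1 FPKM. The ratio of activating receptors to Fcgr2b with a single receptor was 0.6 (Fcgr1), 4.09 (Fcgr3) and 2.03 (Fcgr4) in fl/fl, and 0.277 (Fcgr1) and 0.414 (Fcgr4) in AD1KO, since fewer receptors are summed. Against the macrophage markers, 2 members remained below the lowest marker with a pseudocount of 1, an alternative chosen after seeing the data. Without the length correction, depth was about 15870064 reads for fl/fl and 15736439 for AD1KO. No paired analysis was possible because each group has 1 pooled library. Among the 9 genes depth limits Hcst most. The lists hold genes with fewer reads than Hcst, such as Ncr1, Klrc2, Oscar and Ngp. The spread between animals is not known for any gene.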

Other observations

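Immunoglobulin light chains, which are not the part of IgG that these receptors bind, appear in the table without a symbol, and were picked by their description after their values were seen. The 3 entries described as kappa light chain were all lower, the log2 ratios running from -4.57 to -2.56. Together they had about 39435 reads in the fl/fl library and 5402 in the AD1KO library (log2 ratio -2.86, 95% counting interval -2.90 to -2.81). Of the 6 entries described as lambda light chain, 3 were lower, 2 higher and 1 neither, and their summed reads were about 2232 and 1032 (log2 ratio -1.10, interval -1.21 to -0.99). Such chains share sequence, so the division of reads between entries is uncertain. Plasma cells differ in the chain they make, and a pool of 4 animals cannot show how far single animals set these sums.

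Genes that the table annotates to Fc receptor terms of the Gene Ontology were also looked up after the values were seen. Of 46 such genes outside the 9, 15 were lower, 0 higher and 31 neither, with a median log2 ratio of -0.22. The lower ones included actin regulators of uptake: Was, an activator of actin branching in blood cells, was at 20.7 FPKM in the fl/fl library and 9.21 in the AD1KO library (-1.17, interval -1.36 to -0.99), and the Arp2/3 genes Actr3, Arpc5 and Arpc2 had log2 ratios of -0.80, -0.69 and -0.60, while Actr2 of the same complex, at -0.46, did not pass the threshold. Wasl, the relative of Was found in most cell types, was at 8.86 and 9.63 FPKM (0.12, interval -0.03 to 0.28). Among proteasome genes, which carry these terms too, Psma5 had a log2 ratio of -0.32 (interval -0.42 to -0.22), and Psma6 and Psmd11 both had -0.07.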
